A study of Mus musculus with 4 samples.

Results

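The genes described here encode the contents of cytotoxic granules and receptors of natural killer (NK) cells, with a chemokine and a transcription factor of the same cells. The granule genes were Gzma, Gzmb, Prf1 and Nkg7, the receptor genes were Ncr1, Klre1, Klrb1c and Klra9, and the remaining genes were Xcl1 and Eomes. They were chosen by symbol, and all 10 were among the 27998 genes listed in each library. Each had at least 1 UMI in all 4 libraries. A UMI (unique molecular identifier) marks 1 captured RNA molecule in droplet-based single-cell RNA sequencing. The cells were enriched for CD45+ leukocytes from adult livers of wild-type C57BL/6 mice, and endothelial-like cells remained among them. Exercise mice (2 libraries) ran on a motorized treadmill at 12.5 m/min, and sedentary mice (2 libraries) were put on a treadmill that stayed still. Both groups did this for 60 min a day on 5 days a week over 4 weeks. The labels name no other allele or agent and do not say that the replicates of a group came from separate animals, so each p measures the spread between libraries, which may be technical. Serum alanine aminotransferase, a marker of liver injury, was 26 and 59 U/L for the exercise libraries and 33 and 56 U/L for the sedentary libraries. The series title concerns Kupffer cells, and here the lymphocytes of the same libraries were examined.

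Cytotoxic lymphocytes kill by releasing granules onto a target cell. Perforin opens pores through which granzymes enter, and the granzymes then cleave proteins inside the target. NK cells decide whether to release them by weighing activating receptors against inhibitory receptors that recognise major histocompatibility complex class I molecules. The mouse liver holds circulating NK cells, tissue-resident type 1 innate lymphoid cells and T cells with NK receptors side by side in its sinusoids. Of these cells, conventional NK cells are known to depend on the T-box factor Eomes, and the resident innate cells are known to lack it.

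All 10 genes are protein-coding in the GRCm38 annotation. The granule genes lie apart, with Gzma at chr13:113093825-113100981 and Gzmb at chr14:56258838-56262260 on the minus strand, and Prf1 at chr10:61297833-61304680 and Nkg7 at chr7:43437073-43438249 on the plus strand. Of the receptor genes, Klre1 (chr6:129577905-129585827, plus strand), Klrb1c (chr6:128778485-128789215, minus strand) and Klra9 (chr6:130178675-130193112, minus strand) lie on chromosome 6, and Ncr1 is at chr7:4337724-4345164 on the plus strand. Xcl1 is at chr1:164931644-164935527 on the minus strand and Eomes at chr9:118478212-118486132 on the plus strand. Klrb1c overlaps Gm44511 on the same strand, whereas Xcl1 overlaps Gm20743 and Eomes overlaps Gm33460 on the opposite strand.

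The stretches upstream of the transcription start are shown for 3 of the genes, chosen for where their UMIs lay. Gzmb was higher in one NK-like cluster and Gzma, which was high in both, in the other. Ncr1 had most of its UMIs in NK-like cells. Whether the motifs below bear on these patterns was not tested. All 10 genes had a RefSeq start in the promoter table of build GRCm38.p6, with 12 starts in all. Capitals mark matches to the Runx motif TGTGGT and to the T-box motif TCACAC. Both strands were searched, so that a match may also read as the reverse complement of these letters. The Gzma stretch (chr13:113100982-113101231, minus strand) has a Runx match 50 bases before the start. The Gzmb stretch (chr14:56262335-56262584, minus strand) has Runx matches at 93 and 34 bases and a T-box match at 15 bases. The Ncr1 stretch (chr7:4337465-4337714, plus strand) has Runx matches at 176 and 41 bases and a T-box match at 80 bases. None of these matches overlap.
Gzma: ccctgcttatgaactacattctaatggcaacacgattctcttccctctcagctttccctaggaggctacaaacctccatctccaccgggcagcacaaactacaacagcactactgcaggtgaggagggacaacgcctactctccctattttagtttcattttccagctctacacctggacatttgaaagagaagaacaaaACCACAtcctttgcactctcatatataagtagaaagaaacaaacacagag
Gzmb: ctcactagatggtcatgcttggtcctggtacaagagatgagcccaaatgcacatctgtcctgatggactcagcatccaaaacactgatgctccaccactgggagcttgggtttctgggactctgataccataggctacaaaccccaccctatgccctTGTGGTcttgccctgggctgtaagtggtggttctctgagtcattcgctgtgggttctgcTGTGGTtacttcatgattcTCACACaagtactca
Ncr1: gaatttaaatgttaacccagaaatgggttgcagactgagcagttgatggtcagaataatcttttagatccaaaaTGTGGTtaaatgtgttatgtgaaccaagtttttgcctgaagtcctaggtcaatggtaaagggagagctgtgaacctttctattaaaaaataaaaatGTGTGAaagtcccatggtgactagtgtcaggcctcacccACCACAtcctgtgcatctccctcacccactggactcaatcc
The 2 stretches of Ncr1 overlap each other, as do those of Klre1, so that the same match can be counted again. A Runx match was present in 9 of the 12 stretches, or 8 of the 10 genes, and in 14.0% of all 32851 stretches of this length. A T-box match was present in 6 of the 12, or 5 of the 10 genes, and in 12.3% of all stretches. The stretches of Eomes and Klra9 had neither match. The STAT motif TTCNNNGAA was in 1 of the 12, that of Nkg7, and in 7.02% of all. A match is a run of letters, and binding at it was not measured here.

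Together the libraries yielded 2991 and 4265 barcodes (exercise), against 4165 and 3962 (sedentary), with between 10050976 and 14849778 UMIs each. Filtering left 14560 of 15383 cells, and 125 of 15258 distinct barcode sequences occurred in more than 1 library. Cells were grouped into 28 clusters with the 10 genes left out, and clusters were named from markers that include none of them. NK-like cells were 2 clusters (429 cells), in which 12 of 13 NK markers were detected in at least 10% of cells. Cxcr6-positive T-like cells were 1 cluster (1874 cells) led by the liver-homing chemokine receptor Cxcr6 with Cd3g, Cd3e and Cd3d. Naive-like T cells were 1 cluster (514 cells) led by Dapl1, Tcf7 and Lef1. The other 11743 cells are mainly Kupffer-like, B-like, endothelial and dendritic.

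NK-like cells held most of the UMIs of Ncr1, Gzma and Klra9, and the Cxcr6-positive T-like cells held most of those of Klrb1c, Nkg7 and Xcl1 when the libraries were added together. Ncr1 encodes NKp46, an activating receptor used to define NK cells and related innate cells. NK-like cells held 93.5% of its 508 UMIs in kept cells, Cxcr6-positive T-like cells 2.76%, naive-like T cells 0.984% and all other cells 2.76%. Gzma, a granzyme that cleaves after basic residues, had 8082 UMIs, of which NK-like cells held 80.1%. Klra9, which encodes the inhibitory receptor Ly49I, had 422 UMIs with 75.8% in NK-like cells. Eomes had 173 UMIs, with 49.7% in NK-like and 28.9% in naive-like T cells. Klrb1c, which encodes the antigen NK1.1 in C57BL/6 mice, had 2289 UMIs, with 23.7% in NK-like and 65.9% in Cxcr6-positive T-like cells. Nkg7, a granule membrane protein needed for degranulation, had 19056 UMIs, with 19.2% and 59.5% in the same classes. Xcl1, a chemokine that attracts dendritic cells, had 3500 UMIs, with 36.1% and 52.7%. By library, Cxcr6-positive T-like cells held 60.3% and 48.7% of Xcl1 UMIs in the exercise libraries, against 47.8% and 54.3% in the sedentary ones, and 69.4% and 61.2%, against 49.4% and 57.2%, of Nkg7 UMIs. Gzmb, a granzyme that cleaves after aspartate and activates caspases, had 4747 UMIs, with 44.4% and 39.6%, and the libraries differed. NK-like cells held 28.6% and 53.7% of Gzmb UMIs in the exercise libraries, against 35.4% and 53.8% in the sedentary ones, and Cxcr6-positive T-like cells 56.6% and 34.96%, against 35.4% and 36.6%. Prf1, which encodes perforin, had only 47 UMIs in all, spread as 15 and 12 over the exercise libraries, against 10 and 10 over the sedentary ones. Shares of UMIs depend on how many cells a class has as well as on the level per cell.

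Counted over cells, NK-like cells had a UMI of each of the 10 genes more often than either T-like class did. Gzma was found in 74.4% of NK-like cells, against 2.08% of Cxcr6-positive T-like and 4.28% of naive-like T cells. For Gzma the share was 2.22% in Kupffer-like cells (median 2448 UMIs per cell) and 2.60% in endothelial (LSEC)-like cells (median 2162 UMIs), which should lack the gene. The Cxcr6-positive T-like share (median 2713 UMIs) is no higher than these and is not read as expression in the class as a whole. How many of its Gzma UMIs come from free RNA was not tested. Ncr1 was found in 57.1% of NK-like cells, against 0.48% of Cxcr6-positive T-like, 0.584% of naive-like T, 0.0829% of Kupffer-like and 0.047% of B-like cells. Klrb1c, by contrast, was found in 67.6% of NK-like and also in 49.2% of Cxcr6-positive T-like cells, against 5.84% of naive-like T and 0.846% of Kupffer-like cells. Xcl1 was found in 69.5%, 48.8% and 8.95% of NK-like, Cxcr6-positive T-like and naive-like T cells, and Klre1, a lectin-like receptor subunit, in 77.6%, 17.8% and 7.98%. Nkg7 was the most widespread, with 99.3%, 97.1% and 56.4%, and it was in 14.4% of dendritic cDC1-like cells (median 8550 UMIs) before thinning and in 1.27% after thinning each cell to 1000 UMIs. At this common depth Gzma was in 71.7% of NK-like, 1.02% of Cxcr6-positive T-like and 2.54% of naive-like T cells, beside 0.821% of Kupffer-like and 1.37% of LSEC-like cells. In the same order of the first 3 classes, Klrb1c was in 44.3%, 24.4% and 1.17%, and Xcl1 in 52.9%, 24.0% and 4.69%.

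**Figure D1:**
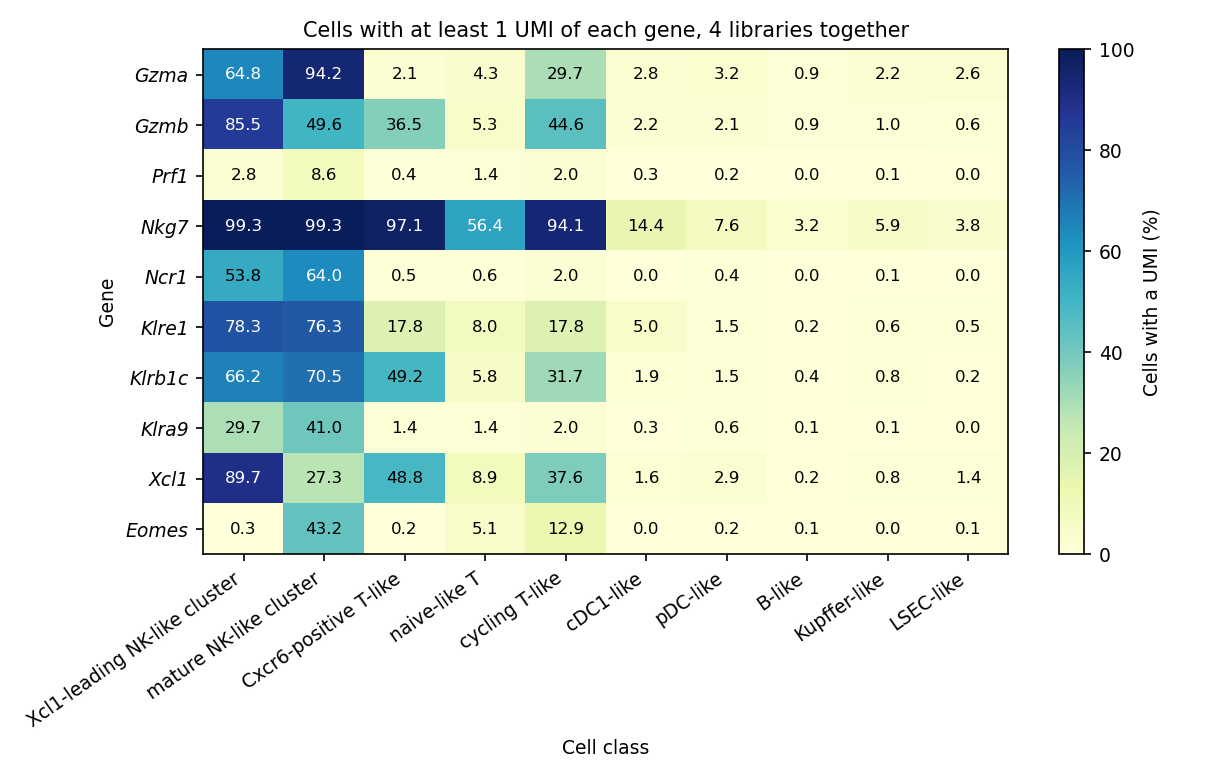
Percent of cells with at least 1 UMI of each gene (rows) in the 2 NK-like clusters and 8 other cell classes (columns), all 4 libraries together and without thinning. Prf1 reaches 8.63% at most, in the mature NK-like cluster, whereas Nkg7 is in 99.3% of both NK-like clusters and 97.1% of Cxcr6-positive T-like cells.

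The NK-like clusters differed in which granule and effector genes they carried. One, called the Xcl1-leading cluster (290 cells), was high in Gzmb and Xcl1 and nearly without Eomes. The other, called the mature cluster (139 cells), carried Eomes, more Gzma and the NK maturity markers. It had 7 of 9 mature NK markers, such as S1pr5 and Cma1, in at least 10% of cells, against 2 of 9 in the Xcl1-leading cluster. Eomes was found in 45.2% and 58.6% of mature-cluster cells after exercise and in 35.9% and 37.5% in the sedentary libraries. In the Xcl1-leading cluster 1 of 290 cells had an Eomes UMI, and 3 of the 4 libraries had none, which for the 92 cells of exercise replicate 2 allows a share of cells with an Eomes UMI of up to 3.26%. This limit covers counting error and says nothing of how many of these cells express Eomes at a level too low to be captured. Gzma was found in 96.8% and 89.7% of mature-cluster cells after exercise and 97.4% and 92.5% in the sedentary libraries, and in 61.5% and 66.3%, against 69.7% and 60.2%, of Xcl1-leading cells. All 4 libraries thus had the higher Gzma share in the mature cluster.

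Gzmb went the other way. It was found in 82.1% and 89.1% of Xcl1-leading cells after exercise and 80.3% and 88.0% in the sedentary libraries, and in 32.3% and 55.2%, against 53.8% and 55%, of mature-cluster cells. Over the 4 libraries together Gzmb stood at 2875 CPM (UMIs per 1e6 UMIs of the cells) in the Xcl1-leading and 614 CPM in the mature cluster, a ratio of 4.68. Xcl1 stood at 1701 and 414 CPM, a ratio of 4.11, and both genes were higher in the Xcl1-leading cluster in 4 of 4 libraries. Gzma stood at 6071 CPM in the Xcl1-leading and 8393 CPM in the mature cluster, and Klra9 at 293 and 432 CPM, and both were higher in the mature cluster in 4 of 4 libraries. Ncr1, Klre1 and Klrb1c showed no such order, being higher in the mature cluster in 2, 3 and 3 of 4 libraries. Prf1 was too sparse for more than counts, with 8 cells of 290 and 12 cells of 139. These are descriptions of clusters built from the same cells and carry no test.

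**Figure D2:**
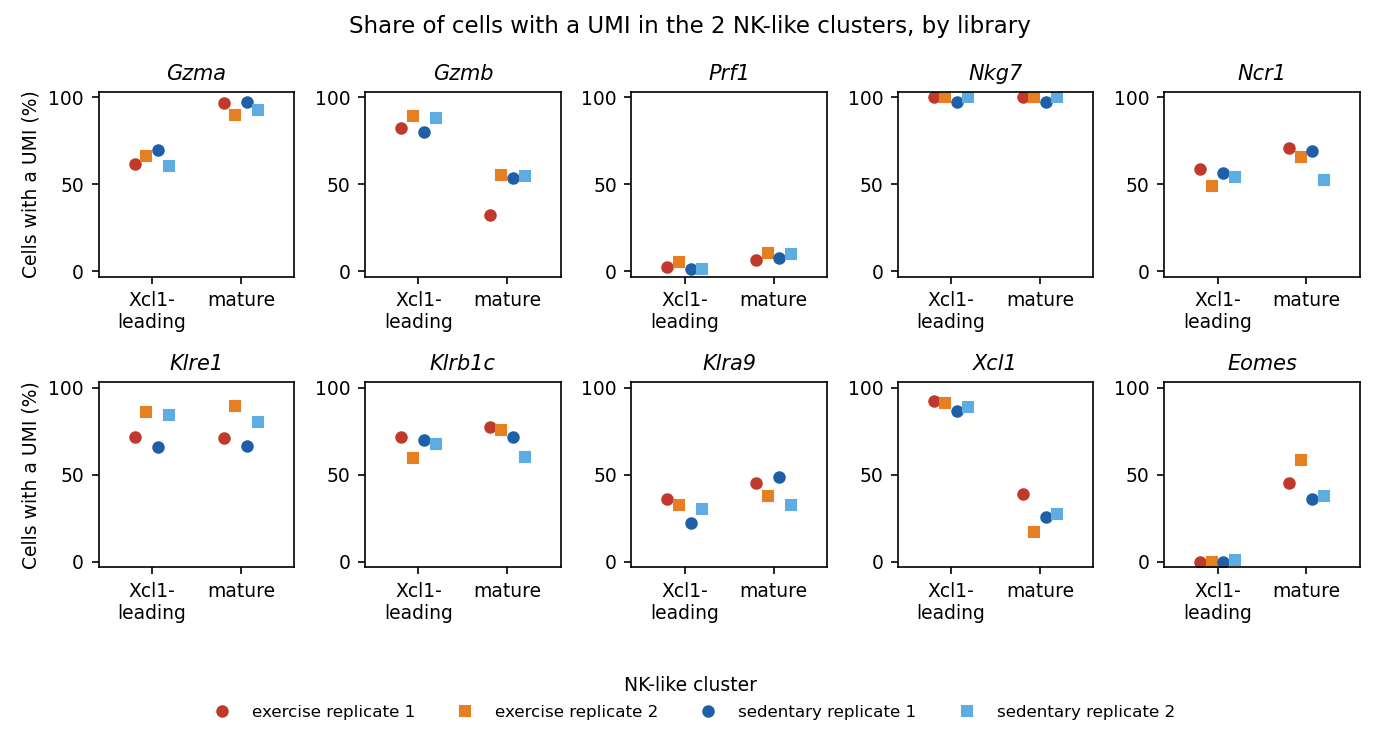
Percent of cells with a UMI of each gene in the Xcl1-leading (left) and mature (right) NK-like cluster, 1 point per library. Gzmb and Xcl1 are higher in the Xcl1-leading cluster and Gzma, Klra9, Prf1 and Eomes higher in the mature cluster in all 4 libraries.

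The Xcl1-leading cluster also carried genes of the T cell receptor complex and markers of type 1 innate lymphoid cells (ILC1). Cd3g was found in 74.1% of its cells, Cd3d in 33.4% and Cd3e in 27.9%, against 1.44%, 3.60% and 1.44% in the mature cluster. Cd8a was in 17.2% of Xcl1-leading and 0.719% of mature-cluster cells. On the list of T cell markers the mature cluster had 5 of 11 in at least 10% of cells. The Xcl1-leading cluster had 9 of 11. Its T cell markers summed to 4085 and 5018 CPM in the exercise libraries, against 4070 and 4024 CPM in the sedentary ones. Within the cluster, Ncr1 was found in 17 of 81 cells with a Cd3e UMI (20.99%, exact binomial 95% interval 12.7 to 31.5) and in 139 of 209 cells without one (66.5%, 59.7 to 72.9). Klrb1c differed in the same direction, with 46.9% of cells with Cd3e and 73.7% without. Klra9 was found more often with Cd3e, in 42.0% against 24.9%, as was Gzmb, in 93.8% against 82.3%. Gzma differed little, with 60.5% and 66.5%, and so did Xcl1, with 85.2% and 91.4%. The intervals cover counting error only, and cells without a Cd3e UMI may still express it. Cells with a Cd3e UMI were deeper, at a median of 2316 UMIs against 2119 UMIs, and no adjustment was made for this. ILC1 markers were also detected in the Xcl1-leading cluster, with 7 of 9 in at least 10% of cells. Among the 9, Cxcr6 was in 57.9%, Cd200r1 in 13.4% and Itga1 in only 7.24%. These markers are not particular to the cluster, since Cxcr6-positive T-like cells had 6 of the 9, with Cxcr6 in 83.9%. The 9 summed to 1990 and 1675 CPM (exercise), against 1598 and 1488 CPM (sedentary), in the Xcl1-leading cluster. In Cxcr6-positive T-like cells they summed to 2620 and 2204 CPM, against 2575 and 2286 CPM.

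In Cxcr6-positive T-like cells, those with a Klrb1c UMI had Klre1 in 22.0% and those without in 13.7%. Gzmb was in 38.9% and 34.1%, Xcl1 in 51.6% and 46.1% and Gzma in 2.17% and 1.996% of the same cells. Cells with Klrb1c were deeper, at a median of 2798.5 UMIs against 2625 UMIs, and no adjustment was made for this. In naive-like T cells, Eomes accompanied the other genes. Of 26 cells with an Eomes UMI (median 4022.5 UMIs), 100% had Nkg7, 42.3% Xcl1 and 30.8% Klre1, against 54.1%, 7.17% and 6.76% of 488 cells without (median 2717.5 UMIs). Nkg7 was in 84.2% of the 177 naive-like T cells with a Cd8a UMI, which marks the cytotoxic T lineage, and in 41.8% of the 337 without. Those with Cd8a were deeper, at a median of 3269 UMIs against 2513 UMIs, and no adjustment was made for depth in these splits either.

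A further cluster of 101 cycling T-like cells held 12.9% of all Gzma UMIs and 9.63% of all Gzmb UMIs. It had all 7 cycling markers and all 11 T cell markers in at least 10% of its cells. Gzma UMIs there numbered 24 and 349 (exercise), against 489 and 182 (sedentary), from 1, 5, 21 and 3 cells. Up to 202 of them came from 1 cell in exercise replicate 2. With 10 and 28 cells (exercise), against 41 and 22 (sedentary), this cluster was not tested.

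Across the 28 clusters the 10 genes were correlated with one another, with Pearson r of log2(CPM + 1) from 0.63 (Ncr1 and Eomes) to 0.94 (Klre1 and Klrb1c) and a median of 0.83 over the 45 pairs. The clusters share libraries and differ in depth, so these values are descriptive. Among 7369 other genes with at least 500 UMIs, the gene most like Nkg7 was Ctsw (r = 0.95), a cathepsin of cytotoxic cells, and the next was Zap70 (0.95). Ifng, the cytokine interferon gamma, was the most like for Klrb1c (0.96) and Gzmb (0.92) and among the first for Klra9 (0.89) and Xcl1 (0.91). For Xcl1 the most like gene was Gata3 (0.92). Klrc2, a receptor gene of the NKG2 family, was the most like for Gzma (0.81), Prf1 (0.86) and Klra9 (0.92). Ncr1 was most like Ccl5 (0.77) and Klrk1 (0.76), Klre1 most like Ctsw (0.92) and Txk (0.90), and Eomes most like Sh2d1a (0.79) and Cd247 (0.77).

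The NK-like share of kept cells overlapped only narrowly between the groups. NK-like cells made up 2.46% and 2.97% after exercise, against 2.95% and 3.29% in the sedentary libraries (70 and 121 against 115 and 123 cells; exact two-sided permutation p = 0.667). Cxcr6-positive T-like cells made up 15.8% and 12.97%, against 10.4% and 13.1% (p = 0.667, exact permutation). Naive-like T cells made up 3.47% and 2.48%, against 4.83% and 3.37% (p = 0.667, exact permutation). With 2 libraries against 2 the smallest p such a test can give is 0.33.

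In NK-like cells none of the 9 genes tested passed the comparison of exercise with sedentary libraries. UMIs of a class were added up within each library, and edgeR's quasi-likelihood test with Benjamini-Hochberg adjustment over all genes was used at a threshold of 0.05. It called 2 of 3406 genes (0.0587%), and 0 of the 9 members, with 0 of the 9 at an unadjusted p under 0.05 and 0 called by DESeq2. The members' log2 changes had a median of 0.03, beside −0.00 over all genes tested, with 6 positive and 3 negative. Gzma stood at 6654 and 7116 CPM in the exercise libraries, against 7497 and 5818 CPM in the sedentary ones. Both exercise values lie within the sedentary range. The log2 change was 0.03 (SE 0.11, edgeR adjusted p = 0.999). Gzmb stood at 1618 and 2700 CPM in the exercise libraries, against 1939 and 2179 CPM in the sedentary ones, so the exercise libraries lie on either side of the sedentary ones (log2 change 0.07, SE 0.18, edgeR adjusted p = 0.999).

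Xcl1 was the only tested gene of the 9 whose groups did not overlap in NK-like cells. It stood at 1368 and 1502 CPM in the exercise libraries, against 1111 and 1241 CPM in the sedentary ones. The log2 change of 0.27 (SE 0.13) had an unadjusted p of 0.0533 and an adjusted p of 0.935 in edgeR's test, so the difference did not pass. Over all genes tested in NK-like cells, 33.9% had groups that did not overlap, against 1 of the 9 members. The Xcl1 change was positive in 15 of 15 alternatives, between 0.06 and 0.37. The share of NK-like cells with an Xcl1 UMI was 68.6% and 73.6% after exercise and 66.1% and 69.1% in the sedentary libraries, and these overlap. NK-like cells were deeper after exercise, with a median of 2218 and 2463 UMIs against 1829 and 2016 UMIs. After thinning to 1000 UMIs the Xcl1 shares were 55.7% and 51.2% after exercise and 53.1% and 52.9% in the sedentary libraries.

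The 4 receptor genes did not pass in NK-like cells. Ncr1 stood at 618 and 399 CPM in the exercise libraries, against 592 and 460 CPM in the sedentary ones, with a log2 change of −0.10 (SE 0.20). Klre1 stood at 681 and 886 CPM against 768 and 867 CPM (−0.06, SE 0.16), and Klrb1c at 706 and 491 CPM against 676 and 486 CPM (0.00, SE 0.26). Within each group of Ncr1 and Klrb1c values, the libraries differed by more than the group means did. Klra9 stood at 369 and 277 CPM against 356 and 363 CPM (−0.21, SE 0.20). Nkg7 stood at 3880 and 3969 CPM against 3508 and 3890 CPM (0.06, SE 0.10) and Eomes at 112 and 86.1 CPM against 106 and 67.3 CPM (0.15, SE 0.31). Their edgeR adjusted p lay between 0.975 and 1.00. Prf1 had 3 and 8 UMIs against 4 and 5 and was too low to be tested. In this annotation, 49.4% of the 50-base windows in the last 500 transcript bases of Klra9 also occur in related genes such as Klra3, Klra8 and Klra10, and 17.8% of those of Klrb1c occur in 4 other genes, among them Gm44511, Klrb1a and Klrb1b. The assignment of UMIs to these genes is therefore uncertain. It is uncertain too where reads of Klrb1c, Xcl1 or Eomes fall in overlapping genes. Gm44511 lies on the strand of Klrb1c, whereas Gm20743 and Gm33460 lie opposite Xcl1 and Eomes. No source used here says whether strand was used in counting.

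**Figure D3:**
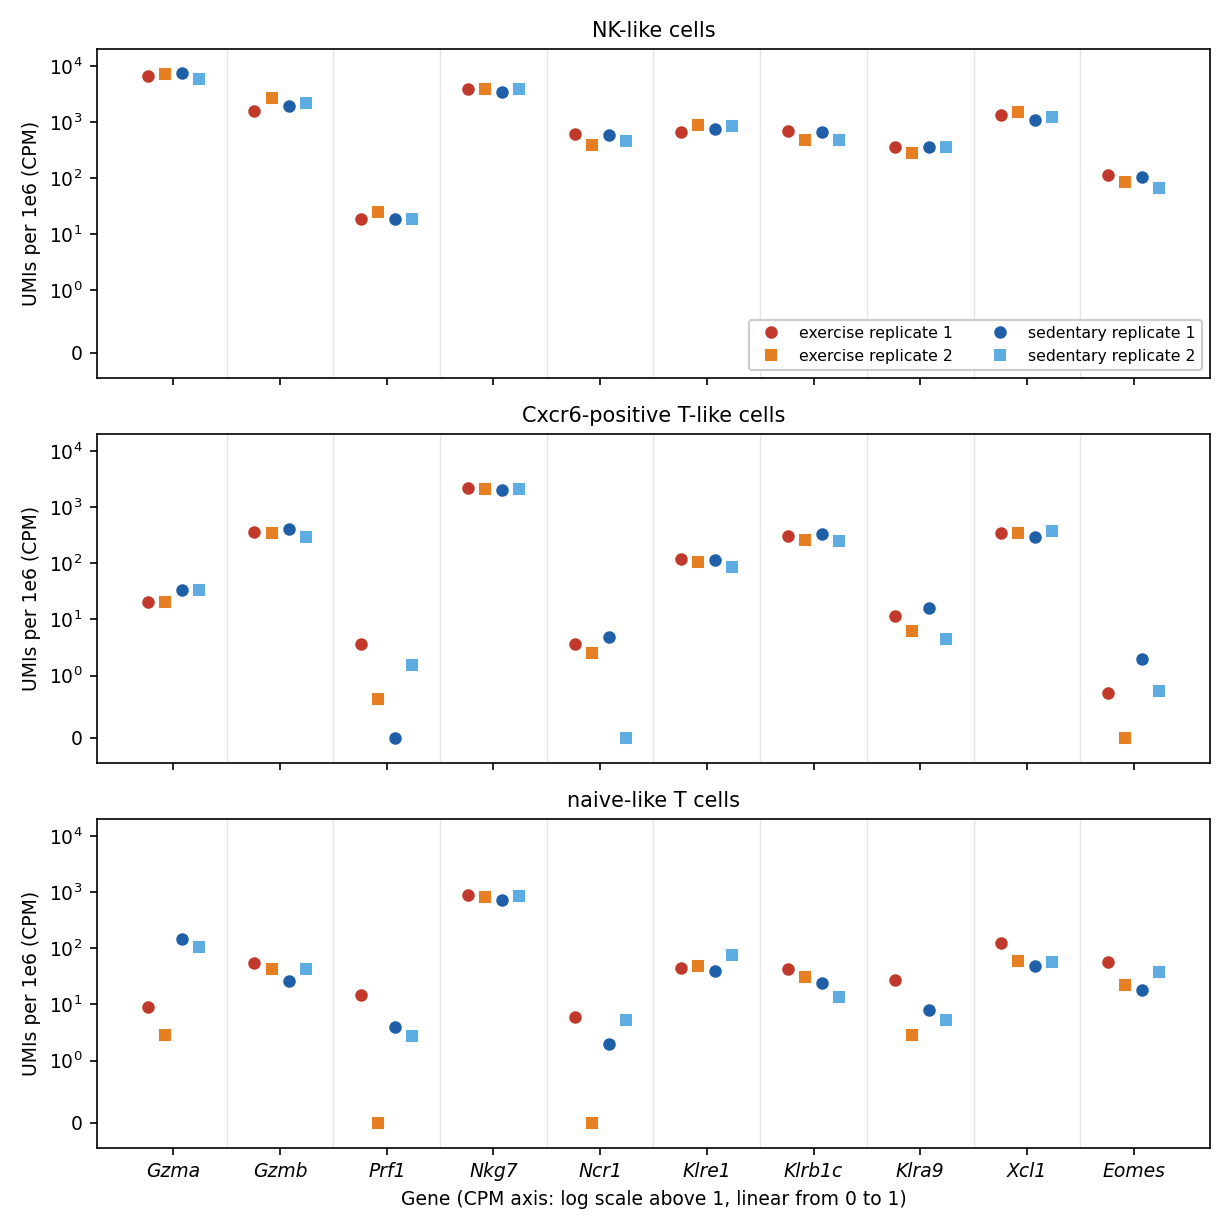
UMIs per 1e6 (CPM, log scale above 1 and linear from 0 to 1) of each gene in NK-like, Cxcr6-positive T-like and naive-like T cells, 1 point per library with exercise left of sedentary. Gzma in naive-like T cells is the only gene and class past the test, at 9.01 and 2.82 CPM in the exercise libraries, against 147 and 104.9 CPM in the sedentary ones.

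In Cxcr6-positive T-like cells 0 of 7 tested members passed. edgeR called 5 of 7770 genes (0.0644%) there, 1 member had an unadjusted p under 0.05, and DESeq2 called 0 members. The members' median log2 change was −0.04, beside −0.00 over all genes. Gzma stood at 20.8 and 20.5 CPM in the exercise libraries, against 33.3 and 33.4 CPM in the sedentary ones, and the groups did not overlap. Its log2 change was −0.73 (SE 0.23, unadjusted p = 0.00798, edgeR adjusted p = 0.672). It was −2.17 with the members kept in clustering (edgeR adjusted p = 0.607) and −1.29 at clustering resolution 1.5 (edgeR adjusted p = 0.647). Groups did not overlap for 35.7% of all genes tested in this class, against 2 of the 7 members, Gzma and Nkg7. These levels rest on few cells, since 10 and 11 exercise cells, against 9 and 9 sedentary cells, had a Gzma UMI, with as many as 20, 23, 24 and 17 UMIs in a single cell. The share of cells with a Gzma UMI was 2.22% and 2.08%, against 2.22% and 1.84%.

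The more widely detected members lay close together in Cxcr6-positive T-like cells. Nkg7 stood at 2162 and 2150 CPM in the exercise libraries, against 2059 and 2090 CPM in the sedentary ones, which do not overlap, at a fitted log2 change of 0.02 (SE 0.07, edgeR adjusted p = 0.993). Gzmb stood at 368 and 342 CPM against 411 and 301 CPM (−0.04, SE 0.14), and Xcl1 at 348 and 350 CPM against 293 and 376 CPM (0.02, SE 0.13). Klrb1c stood at 302 and 261 CPM against 335 and 247 CPM (−0.08, SE 0.15), and Klre1 at 121 and 107 CPM against 117 and 87.3 CPM (0.13, SE 0.17). For these 4 genes the groups overlap. Klra9 had 16 and 10 UMIs against 16 and 6. The share of cells with an Xcl1 UMI was 56.9% and 50.3% after exercise and 44.8% and 43.1% in the sedentary libraries (exact permutation p = 0.33). After thinning it was 24.0% and 25.9% against 23.1% and 22.7%, with a median depth of 2996.5 and 2931 UMIs against 2418.5 and 2543 UMIs before thinning. Prf1, Ncr1 and Eomes, with at most 5 UMIs in any library, were not tested.

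In naive-like T cells Gzma was lower after exercise, and it was the only member called in any class. Gzma UMIs numbered 3 and 1 after exercise and 73 and 39 in the sedentary libraries, or 9.01 and 2.82 CPM against 147 and 104.9 CPM. Both exercise libraries lay below both sedentary libraries. Groups did not overlap for 35.5% of all genes tested in this class, against 3 of the 7 members, Gzma, Xcl1 and Klrb1c. Gzma averaged 5.92 ± 4.38 CPM in the exercise libraries, against 126 ± 29.8 CPM in the sedentary ones (SD, n = 2 each). It fell by 4.44 as a log2 value (SE 0.46), with an edgeR adjusted p of 0.00852. In Kupffer-like clusters, which should lack the gene, Gzma stood between 4.94 and 15.4 CPM, and in LSEC-like cells at 11.6 CPM. The exercise values lie within or below this range, so the size of the fall is uncertain. edgeR called 3 of 3719 genes (0.0807%) in this class, all lower after exercise, and DESeq2 called 2, Gzma among them. With doublets kept, which rebuilds the clusters, the call was lost (log2 change −1.18, edgeR adjusted p = 0.655), though it held under the other alternatives run. Gzma then had 6 and 34 UMIs after exercise and 83 and 26 in the sedentary libraries, with 32 of the 34 in 1 cell.

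Most sedentary Gzma UMIs in naive-like T cells sat in 7 cells. A Gzma UMI was found in 3 of 99 and 1 of 101 cells after exercise and in 10 of 188 and 8 of 126 cells in the sedentary libraries. Naive-like T cells were deeper after exercise, with a median of 3155 and 3292 UMIs against 2518.5 and 2642.5 UMIs. The shares with their exact binomial 95% limits were 3.03% (0.629 to 8.60) and 0.99% (0.0251 to 5.39) in the exercise libraries, against 5.32% (2.58 to 9.56) and 6.35% (2.78 to 12.1). Cells with over 5 Gzma UMIs numbered 0 and 0 after exercise and 4 and 3 in the sedentary libraries, and these 7 cells held 62 of 73 and 31 of 39 sedentary UMIs. The remaining cells had 3 and 1 UMIs after exercise and 11 and 8 UMIs in the sedentary libraries. Of the 7 cells, 6 had Nkg7, 6 had Klrd1, 5 had Cd3d, 4 had Cd3e, 4 had Cd3g and 3 had Cd8a. In the 507 others these genes were in 56.0%, 33.5%, 89.0%, 66.1%, 84.0% and 34.3% of cells. Klre1 and Klrb1c were in 2 of the 7 each and Tyrobp in 3, against 7.69%, 5.52% and 38.3%. The naive T cell factor Tcf7 was in 0 of the 7 and in 44.0% of the 507 others. Ncr1 and Eomes were also in 0 of the 7, which says little, since they were in 0.592% and 5.13% of the others. Whether these 7 cells are of the same type as the rest of the class was not tested. Gzma was not tested without them either, since they were picked by their Gzma count.

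**Figure D4:**
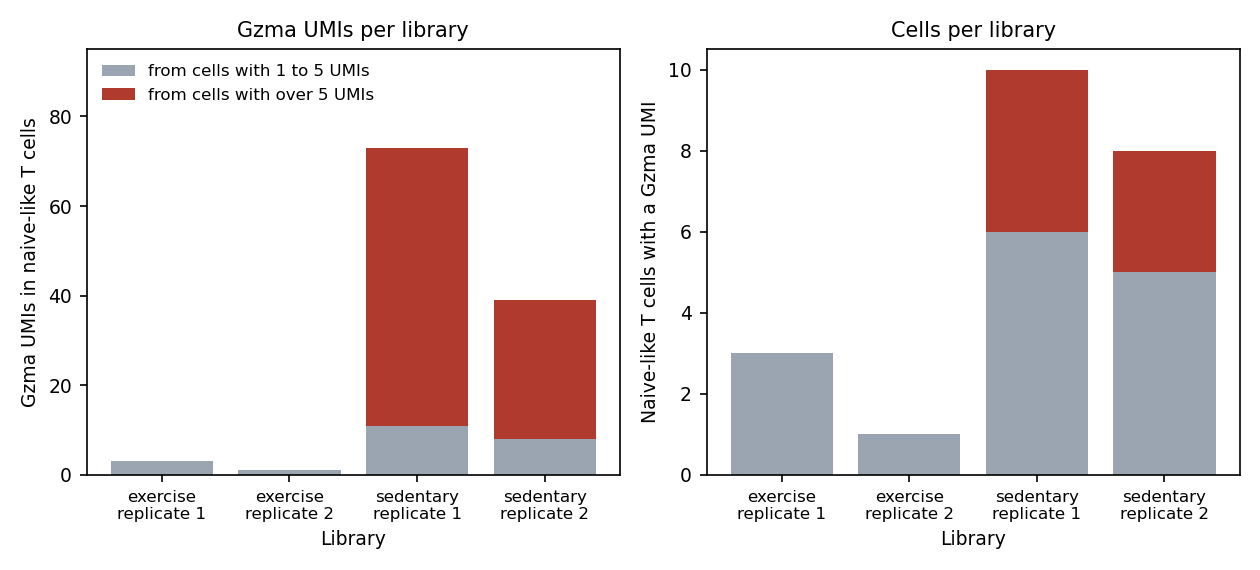
Gzma UMIs (left) and cells with a Gzma UMI (right) among naive-like T cells in each library, divided into cells with 1 to 5 and over 5 Gzma UMIs. The 7 cells with over 5 UMIs are all sedentary and hold 62 and 31 of the UMIs there.

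The other members in naive-like T cells did not pass, and several of the tested ones lay on the higher side after exercise. Of 7 members tested, 5 had a positive and 2 a negative log2 change, with a median of 0.46 beside −0.01 over all genes tested. Xcl1 stood at 126 and 59.3 CPM in the exercise libraries, against 48.3 and 56.5 CPM in the sedentary ones (log2 change 0.76, SE 0.34, edgeR adjusted p = 0.839). The groups did not overlap. In exercise replicate 1, 23 of its 42 UMIs came from 1 cell, and without that library the change was 0.19. Without exercise replicate 2 Xcl1 passed (1.15, edgeR adjusted p = 0.0475), against a range of 0.0475 to 1.00 over its 12 alternatives. Klrb1c stood at 42.1 and 31.1 CPM against 24.2 and 13.4 CPM (0.84, SE 0.46, edgeR adjusted p = 0.839), with 14 and 11 UMIs against 12 and 5. A Klrb1c UMI was found in 11.1% and 7.92% of cells after exercise and 3.19% and 3.97% in the sedentary libraries (exact permutation p = 0.33), and after thinning in 3.03% and 0.99%, against 0.538% and 0.794%.

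Gzmb, Eomes, Nkg7 and Klre1 overlapped between the groups of naive-like T cells. Gzmb stood at 54.1 and 42.3 CPM in the exercise libraries, against 26.2 and 43.0 CPM in the sedentary ones (0.46, SE 0.36), and Eomes at 57.1 and 22.6 CPM against 18.1 and 37.7 CPM (0.51, SE 0.51). Nkg7 stood at 904 and 836 CPM against 715 and 861 CPM (0.09, SE 0.14), and Klre1 at 45.1 and 48.0 CPM against 40.3 and 75.3 CPM (−0.31, SE 0.37). Prf1, Ncr1 and Klra9 had at most 9 UMIs in a library and were not tested.

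**Figure D5:**
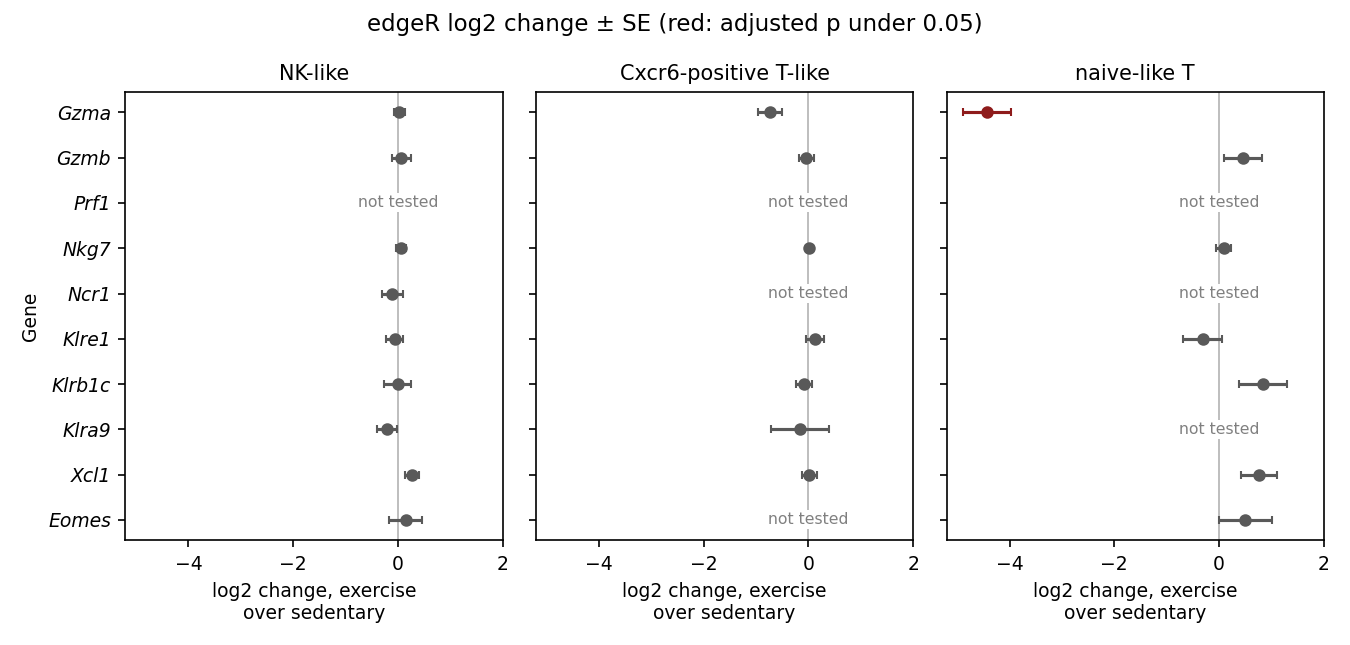
Fitted log2 change of each gene, exercise over sedentary, with its standard error, in NK-like, Cxcr6-positive T-like and naive-like T cells. Gzma in naive-like T cells, at −4.44, is the only value past an adjusted p of 0.05.

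The exercise effect on Gzma differed between naive-like T cells and the other classes. In edgeR's interaction test, a comparison added after the values were seen, the log2 difference of effects was −4.42 (SE 0.42, edgeR adjusted p = 1.13e-20) for naive-like T minus NK-like cells and −3.73 (SE 0.59, edgeR adjusted p = 2.44e-05) for naive-like T minus Cxcr6-positive T-like cells. These tests called 5 of 4655 (0.107%) and 1 of 6931 genes (0.0144%), with Gzma the only member in each of 9 and 8 members tested. edgeR shares its estimate of the spread over genes, and most sedentary Gzma UMIs in naive-like T cells sat in 7 cells. The size of these p is therefore uncertain. Without the library term the smallest edgeR adjusted p over all genes was 3.16e-06 and 0.0207. With doublets kept neither difference passed (−1.18, edgeR adjusted p = 0.143, and −0.29, edgeR adjusted p = 0.996), and without exercise replicate 2 the second missed the threshold (−3.16, edgeR adjusted p = 0.0728). Between NK-like and Cxcr6-positive T-like cells 2 of 6785 genes (0.0295%) were called, Serpina3g and Ccl5, and 0 of the 10 members. Gzma had a difference of 0.77 there (SE 0.23, unadjusted p = 0.00161, edgeR adjusted p = 0.927), and it was the only 1 of the 10 members at an unadjusted p under 0.05. The other 9 members ranged from −0.72 (Prf1, SE 1.41) to 1.78 (Eomes, SE 1.37) with an edgeR adjusted p of 1. Prf1 and Eomes were too low to be tested within Cxcr6-positive T-like cells, so both ends of this range are uncertain. DESeq2 was not run for these differences.

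Over all kept cells, 0 of the 10 members passed edgeR's test, which called 8 of 12144 genes (0.0659%). None had an unadjusted p under 0.05, against 6.93% of all genes tested, and DESeq2 called 0 of them. Gzma stood at 121 and 197 CPM in the exercise libraries, against 232 and 171 CPM in the sedentary ones (log2 change −0.36, SE 0.24, edgeR adjusted p = 0.823). Klra9 stood at 9.31 and 7.81 CPM against 11.5 and 10.1 CPM (−0.36, SE 0.17) and Ncr1 at 11.2 and 9.74 CPM against 14.2 and 11.4 CPM (−0.32, SE 0.16). For both, the exercise libraries lay below the sedentary libraries, and Xcl1 lay above them at 84.0 and 83.1 CPM against 63.6 and 82.8 CPM (0.16, SE 0.14). Groups did not overlap for 37.7% of all genes tested, against these 3 of the 10. In such sums, fewer cells of a type and less RNA per cell cannot be told apart.

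The wider list of 69 cytotoxicity genes held no call by the same test in any of the 3 classes. In NK-like cells 51 were tested, with 8 at an unadjusted p under 0.05 (5.31% of all genes tested were), 0 called by DESeq2 and a median log2 change of −0.01, with 22 positive and 29 negative. The granule genes among them had 6 positive and 4 negative changes, the death ligands and cytokines 2 and 4, and the NK receptors 7 and 13. Ccl4, a chemokine of activated lymphocytes, had the smallest p (log2 change −0.75, SE 0.19, edgeR adjusted p = 0.377), with 494 ± 45.1 CPM in the exercise libraries, against 821 ± 245 CPM in the sedentary ones (SD, n = 2 each). Serpinb6b and Serpinb9, inhibitors that guard cytotoxic cells against granule proteases, followed at −0.88 (edgeR adjusted p = 0.554) and −0.78 (0.72). For these 3 genes, picked by their small p, both exercise libraries lay below both sedentary libraries. Groups did not overlap, in either direction, for 20 of the 51 list genes and for 33.9% of all genes tested in NK-like cells. The death ligand gene Fasl was at −0.62 (edgeR adjusted p = 0.852), Ifng at −0.83 (0.935) and Tbx21, the T-box partner of Eomes, at 0.77 (0.869). Klrd1 and Klrk1, receptor subunits CD94 and NKG2D, were at 0.23 and 0.09, the adaptor Tyrobp at 0.04, the granule core protein gene Srgn at 0.25, the granzyme-activating protease gene Ctsc at 0.19 and Gzmc at 0.39. Gzmk had 1 and 9 UMIs after exercise and 0 and 0 in the sedentary libraries and was too low to be tested.

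In Cxcr6-positive T-like cells 52 of the 69 were tested, with 9 at an unadjusted p under 0.05 (5.97% of all genes tested were), 0 called by DESeq2 and a median of −0.08 (23 positive, 29 negative). Tnf (−1.35) and Ccl4 (−1.11) had the smallest adjusted p, 0.161 for both in edgeR, followed by Prdm1 (−1.10, adjusted p = 0.556). Tnf averaged 12.5 ± 2.70 CPM in the exercise libraries, against 31.0 ± 1.95 CPM in the sedentary ones, and Ccl4 19.7 ± 0.623 and 41.1 ± 4.09 CPM (SD, n = 2 each). Fasl was at −0.44, Ifng at −0.14 and Tbx21 at 0.30. In naive-like T cells 28 were tested, with 1 at an unadjusted p under 0.05 (5.57% of all genes tested were), 0 called by DESeq2 and a median of 0.01 (14 positive, 14 negative). That gene was Id2 (−0.63, SE 0.19, edgeR adjusted p = 0.839). Xcr1, the receptor for the Xcl1 chemokine, was found in 77.1% of cDC1-like cells, 0.842% of pDC-like cells and 0 of 429 NK-like cells. Over all kept cells its log2 change was 0.13 (SE 0.22, edgeR adjusted p = 0.931).

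In NK-like and Cxcr6-positive T-like cells the genes called were all outside these lists. In NK-like cells they were Zfp36l2 (−1.40, edgeR adjusted p = 0.0208) and Vps37b (−1.42, edgeR adjusted p = 0.0427), and the genes nearest to a call on the higher side were Rsrp1 (0.92) and Asb2 (1.70). In Cxcr6-positive T-like cells Fosb (−2.12) and Junb (−0.93), each with an edgeR adjusted p of 0.0196, led on the lower side and Rsrp1 (1.11, edgeR adjusted p = 0.035) was called higher. In naive-like T cells Gm8369 (−1.44, edgeR adjusted p = 0.022) was called after Gzma, and Snrpd1 (1.03) and Ppan (1.71) came nearest on the higher side without a call. Hepatocyte transcripts in the same cells were highest in sedentary replicate 1. The 10 hepatocyte markers summed to 15.02 and 22.6 CPM in the exercise libraries, against 292 and 69.9 CPM in the sedentary ones in naive-like T cells, and to 18.7 and 73.3 CPM against 264 and 71.0 CPM in NK-like cells. None of the 10 was detected in 10% of cells of either class. Their part in the Gzma difference was not tested. NK markers in naive-like T cells summed to 1364 and 1544 CPM in the exercise libraries, against 1186 and 1840 CPM in the sedentary ones, and 8 of 13 were detected in at least 10% of cells.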

How the data were processed

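The deposited files hold raw UMI counts, whole numbers for each gene and barcode of 4 libraries. Per the labels' protocols, collagenase was used to free the liver cells, and CD45+ cells were taken from the non-parenchymal fraction with magnetic beads. From these, 10x Genomics 3′ libraries were made. The series text speaks instead of single nuclei and FACS (cell sorting), and this difference was not resolved. The submitters' processing notes name Cell Ranger, Seurat 3.1 and the builds mm10 and GRCm38, and the series text names a pre-mRNA reference, so intronic reads may be counted. No source used here gives Cell Ranger's version.

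Barcodes needed 500 UMIs, 200 genes and no more than 20% mitochondrial UMIs, 460 doublets were removed, and cells were clustered (2000 variable genes, 30 principal components, 20 neighbours, Leiden resolution 1.0, seed 1) without the 10 genes. Doublets were scored against simulated ones at 0.8% per 1000 cells. Of the markers chosen, Trbc2 and Itgam were not used. The UMIs of each class were added up within a library and tested with edgeR 4.0.16 (TMM, filterByExpr, quasi-likelihood F-test, Benjamini-Hochberg at 0.05, R 4.3.3) with DESeq2 1.42.0 as an alternative. The interaction tests had library as a term. The edgeR script was tested on simulated data. Python 3.11.15, scikit-learn 1.9.0 and leidenalg 0.10.2 were used. Shares of cells have exact binomial 95% intervals for counting error only, and a count of 0 was given the limit of 3 counts. Coordinates are GRCm38.

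The 10 genes, the wider gene list, the markers and the tests were chosen with earlier results of these data known. Genes were named by rule: the 10 members, 11 partners, up to 3 list genes and 2 genes per direction in each class with the smallest adjusted p, and the 2 genes most like each member. Genes counted together in single cells, such as Cd3e, Cd8a and Tcf7, and the genes called in the interaction test were named after their values were seen. Same-numbered replicates are not stated to be paired, and no block was used in the main comparison.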

Additional observations from a re-analysis of the deposited data

Results flagged for a closer look

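By a test of the difference itself, added after the values were seen, the exercise effect on Gzma differed between cell classes. In naive-like T cells minus Cxcr6-positive T-like cells the log2 difference was −3.73 (edgeR adjusted p = 2.44e-05). For naive-like T cells minus NK-like cells it was −4.42 (edgeR adjusted p = 1.13e-20). The size of these p is uncertain, since edgeR shares its estimate of the spread over genes. Without the library term the smallest edgeR adjusted p over all genes was 0.0207 and 3.16e-06. In naive-like T cells 2 of 2 exercise libraries, at 3 and 1 Gzma UMIs, lay below both sedentary libraries, at 73 and 39 UMIs. Of these sedentary UMIs, 62 of 73 and 31 of 39 sat in 7 cells, and 0 of the 7 had a Tcf7 UMI. With doublets kept the differences were −0.29 (edgeR adjusted p = 0.996) and −1.18 (edgeR adjusted p = 0.143). Without exercise replicate 2 the first was −3.16 (edgeR adjusted p = 0.0728), and over its other alternatives that left out a library it stayed past the threshold.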

How the results depend on the processing

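The number of genes called moved with the settings. The only member called within a class, Gzma in naive-like T cells, lost its call with doublets kept, as did both Gzma interactions. Whether Xcl1 passed in that class also depended on the setting. In NK-like cells 2 genes were called, against 8 without the filter on low counts, 1 by DESeq2, 0 with cells of 1000 UMIs and 500 genes or more, 0 with the members kept in clustering, 0 at resolution 1.5 and 2 to 26 when a library was left out. Among alternatives chosen after seeing the data, the Xcl1-leading cluster alone gave 0, the mature cluster alone 1 and cells with no Cd3d or Cd3e UMI 0. In Cxcr6-positive T-like cells 5 became 81 without the filter, 12 by DESeq2, 2 with the members kept in clustering and 5 to 99 with a library left out. For naive-like T cells 3 became 16 without the filter and 6 to 56 with a library left out. In all kept cells 8 became 255, 81 by DESeq2, 4 with doublets kept and 19 to 75 with a library left out. The interaction of NK-like with Cxcr6-positive T-like cells gave 2, against 1 without the filter, 0 without the library term and 0 to 4 with a library left out. Both interactions with naive-like T cells were chosen after seeing the data. Against Cxcr6-positive T-like cells they gave 1, against 0 with doublets kept and 1 to 4 with a library left out. Against NK-like cells they gave 5, against 1 with doublets kept, 1 without the library term and 2 to 10 with a library left out. Leaving out a library sets 1 sample against 2, and the lone sample is assumed to vary like the others. The cause of these moves was not tested.

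Same-numbered replicates deviated together with r = 0.103 in NK-like, 0.157 in Cxcr6-positive T-like, 0.105 in naive-like T and 0.229 in all kept cells. These values rest on 2 pairs, and the labels do not state a pairing. Serum alanine aminotransferase was 26 U/L (exercise) and 33 U/L (sedentary) for replicate 1, and 59 and 56 U/L for replicate 2. Whether same-numbered libraries share a batch was not tested. With the replicate block 10, 89, 4 and 118 genes were called in these groups of cells. Of the wider cytotoxicity list, the block called Ccl4 in NK-like cells, Ccl4, Tnf, Serpinb9 and Prdm1 in Cxcr6-positive T-like cells and Ccl3 in all kept cells, each lower after exercise.

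Of 23 fitted pairs of member and class, 7 kept their sign in every alternative run and 16 turned in at least 1, none of these past the threshold. In NK-like cells Klrb1c turned to −0.00297 without the filter, −0.00382 with 1000 UMIs and 500 genes, −0.024 with doublets kept and −0.070 at resolution 1.5. Gzma turned to −0.014 at resolution 1.5, −0.049 in the Xcl1-leading cluster and −0.19 without Cd3d or Cd3e. Gzmb turned to −0.26 in the mature cluster and −0.22 without Cd3d or Cd3e, and Ncr1 to 0.19 in the mature cluster. Leaving out a library gave −0.24 to 0.25 for Klrb1c, −0.31 to 0.11 for Klre1, −0.40 to 0.20 for Ncr1, −0.40 to 0.38 for Gzmb, −0.13 to 0.21 for Gzma, −0.022 to 0.16 for Nkg7 and −0.15 to 0.48 for Eomes there. In Cxcr6-positive T-like cells it gave −0.29 to 0.14 for Klrb1c, −0.88 to 0.87 for Klra9, −0.25 to 0.19 for Gzmb, −0.15 to 0.22 for Xcl1, −0.00134 to 0.033 for Nkg7 and −0.074 to 0.33 for Klre1. For naive-like T cells it gave −0.24 to 1.03 for Eomes, −0.035 to 0.21 for Nkg7 and −0.74 to 0.13 for Klre1.

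Gzma in naive-like T cells lay between −5.35 and −1.18 and lost its call with doublets kept. Prf1 had 47 UMIs in all, too few for a test in any of the 3 classes. Shares of classes moved less than the spread between replicates in 12 of 12 alternatives. The NK-like shares of the groups, which overlapped narrowly, no longer overlapped among cells with at least 1000 UMIs and 500 genes.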
